A study of Mus musculus with 3 samples.

Results

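The 9 genes examined here are 4 developmental pluripotency-associated genes, Dppa2, Dppa3, Dppa4 and Dppa5a, and 5 transcription factor genes linked to pluripotency, Tbx3, Klf4, Pou5f1, Nanog and Sox2. They were taken by symbol from the probe annotation, which gave 22 of the 45281 probes on the array and 9 of its 19057 named genes. The samples were total RNA of NIH/3T3 cells, an immortalized line of mouse embryo fibroblasts, on Illumina expression bead arrays. Recovery cells had received 1 uM of the DNA methyltransferase inhibitor 5-aza-2'-deoxycytidine, renewed every day for 3 days, and were then grown for 14 days without it; 5aza-dC cells had the same exposure and no growth afterwards; Mock cells were mock-treated. All 3 groups were the same cell line, and no embryonic stem cell sample was analysed here. The same Mock cells were compared with both exposed groups, and no day of exposure or recovery is given for them. In Recovery minus Mock, the past exposure and the 14 further days of growth cannot be told apart. Each group was deposited as 1 column, and the values of 2 arrays behind each column were solved from the deposited tables, so each group has n = 2 arrays. Whether these arrays are the duplicate independent experiments of the series description or technical repeats is not stated, and p-values measure only the spread between them.

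Embryonic stem cells hold a self-sustaining set of transcription factors in which Pou5f1 (Oct4), Sox2 and Nanog bind many of the same regulatory elements, including those of their own genes. Klf4 and Tbx3 link signalling by leukaemia inhibitory factor (LIF) to that set, and both also act in differentiated cells. The Dppa genes are expressed in the early embryo, the germ line and embryonic stem cells, and in somatic cells several of them are silent with methylated promoters.

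Methylation in mammals falls mainly on the cytosine of CG dinucleotides, so the promoters are shown for the CG sites they hold. RefSeq (GRCm38.p6) promoter sequence was matched for 4 of the 9 genes, and each line below gives the 250 bases before the start site, 5' to 3' on the gene's strand, with CG in capitals.
Klf4, chr4:55532476-55532725, minus strand: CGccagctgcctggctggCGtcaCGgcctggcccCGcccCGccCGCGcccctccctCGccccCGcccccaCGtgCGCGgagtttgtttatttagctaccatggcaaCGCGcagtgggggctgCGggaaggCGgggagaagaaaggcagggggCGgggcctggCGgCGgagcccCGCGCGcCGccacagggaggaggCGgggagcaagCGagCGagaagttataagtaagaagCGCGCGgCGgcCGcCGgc
Sox2, chr3:34649745-34649994, plus strand: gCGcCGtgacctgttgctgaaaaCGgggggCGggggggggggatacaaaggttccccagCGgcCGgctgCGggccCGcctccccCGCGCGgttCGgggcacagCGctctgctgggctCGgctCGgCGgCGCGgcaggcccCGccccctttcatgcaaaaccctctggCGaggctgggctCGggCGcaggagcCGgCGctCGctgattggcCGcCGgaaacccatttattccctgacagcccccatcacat
Pou5f1, chr17:35505782-35506031, plus strand: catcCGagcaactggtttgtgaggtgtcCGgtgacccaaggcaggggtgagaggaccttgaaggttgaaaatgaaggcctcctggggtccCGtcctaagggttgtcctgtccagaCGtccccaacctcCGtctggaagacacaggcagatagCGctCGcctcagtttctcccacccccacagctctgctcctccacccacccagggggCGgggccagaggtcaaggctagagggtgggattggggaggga
Nanog, chr6:122707239-122707488, plus strand: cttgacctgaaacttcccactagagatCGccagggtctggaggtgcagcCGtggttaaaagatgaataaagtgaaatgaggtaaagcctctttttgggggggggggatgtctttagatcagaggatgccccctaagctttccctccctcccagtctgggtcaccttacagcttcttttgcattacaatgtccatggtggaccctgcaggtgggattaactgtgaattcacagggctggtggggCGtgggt
The Klf4 window held 32 CG sites and was 74% G or C, and 4.58% of all 32851 promoter windows of the same length held at least as many CG sites. The Sox2 window held 27 CG sites at 72% G or C, a number reached by 8.56% of windows. Both lie far above the median window, which held 6. Pou5f1 had 8 CG sites at 62% G or C (at least as many in 43.0% of windows), and Nanog had 3 at 52% (71.0%). For Pou5f1 and Nanog RefSeq gives 2 windows, and the more upstream start site was used. The letters TTTGCAT, most of the octamer that POU factors such as Oct4 bind, occurred on either strand in the Sox2 and Nanog windows, in neither the Klf4 nor the Pou5f1 window, and in 4.12% of all windows. DNA methylation was not measured in these samples.

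Signal in these cells was limited to part of the set. Of the 22 probes, 10 were detected in at least 1 group at a detection p-value below 0.01 and 7 in all 3 groups; the other 12 gave deposited signals of 52.8 to 72.5, against medians over all probes of 61.1 in Recovery, 61.2 in 5aza-dC and 63.8 in Mock. Dppa4, Dppa5a, Tbx3, Klf4 and Sox2 were represented by a detected probe and were tested, among 8984 genes in all. Dppa2, Dppa3, Pou5f1 and Nanog were not detected in any group. Over the whole array 31.1% of probes were detected in Recovery, 33.4% in 5aza-dC and 31.9% in Mock. In each group 11 of 12 fibroblast markers were detected, all but Postn, while of 9 embryonic stem cell markers Sox2 alone was, and Esrrb, Fgf4, Lin28a, Nanog, Pou5f1, Tdgf1, Utf1 and Zfp42 were at background. In bulk RNA, more cells that express a gene and more RNA per cell cannot be told apart.

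In 5aza-dC cells, 3 of the 5 detected genes rose relative to Mock, Dppa4, Dppa5a and Klf4, and 2 fell, Tbx3 and Sox2. Dppa4 entered the test through detection in 5aza-dC alone, where it is high. Its calls in this paragraph, those at 2-fold included, are therefore not independent of that filter. Among all genes tested, 30.0% rose and 27.0% fell by the same rule, a limma adjusted p below 0.05 (Benjamini-Hochberg over all 8984 genes) with detection in the brighter group. At least 2-fold changes were called for Dppa4, Dppa5a and Tbx3, against 6.61% of all genes higher and 2.48% lower. After the 14 days of growth, Dppa5a and Klf4 were higher and Tbx3 and Sox2 lower in Recovery than in Mock, and Dppa4 was below detection again; the shares over all genes were 21.6% higher and 18.4% lower. Of these, Tbx3 alone differed by at least 2-fold, as did 1.66% of all genes higher and 1.26% lower. Relative to 5aza-dC, Dppa4 and Dppa5a fell in Recovery and none of the 5 rose, with 21.5% of all genes higher and 20.9% lower. Dppa4 alone fell by at least 2-fold there, against 0.879% of all genes higher and 4.41% lower by that much. All 3 comparisons share groups with each other and are not independent of one another.

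**Figure D1:**
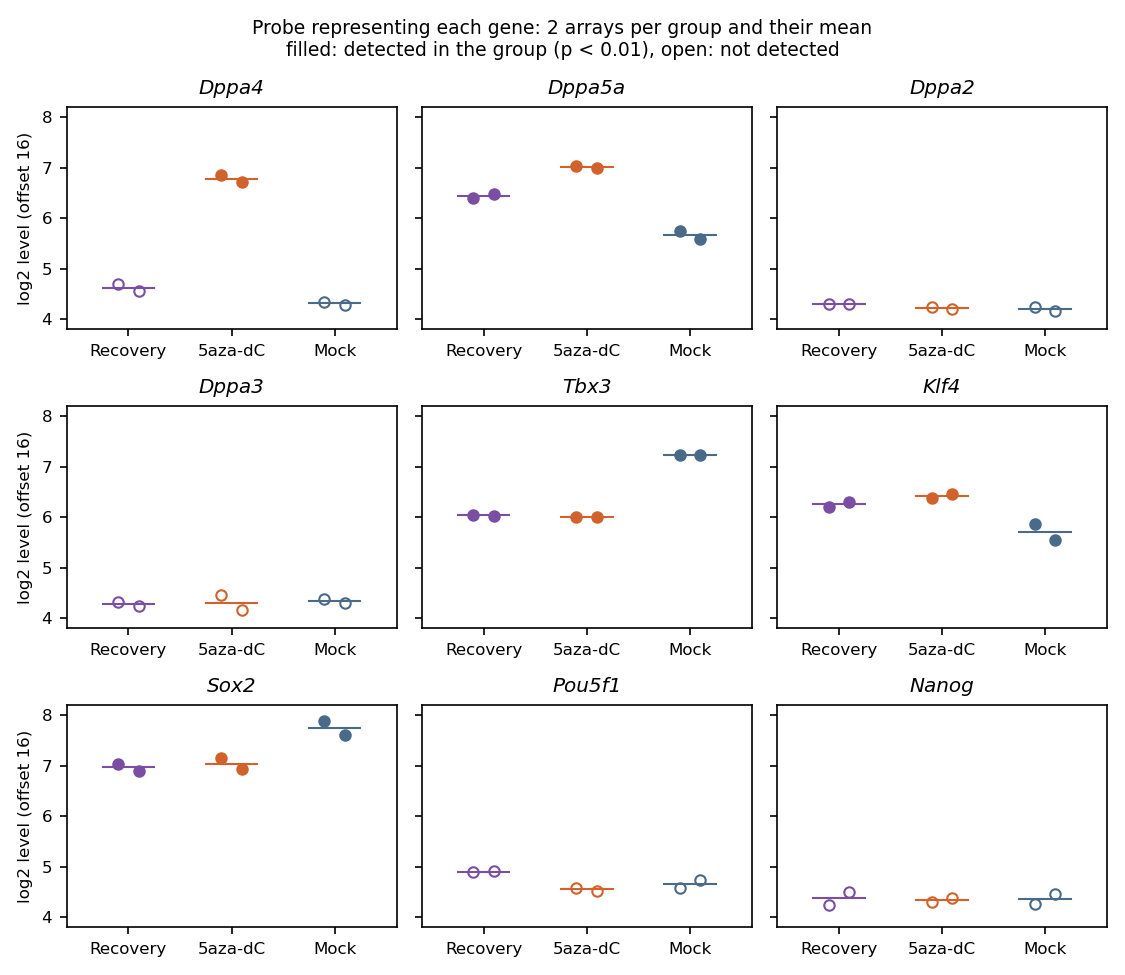
Normalized log2 level (y axis) of the probe that represents each of the 9 genes, with 1 point per array and a bar at the mean of the 2 arrays, for Recovery, 5aza-dC and Mock; open points mark groups in which the probe was not detected. Dppa4 stands out in 5aza-dC alone at 6.86 and 6.71, Tbx3 is highest in Mock at 7.24 and 7.23, and Dppa2, Dppa3, Pou5f1 and Nanog lie at background throughout.

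Dppa4 encodes a chromatin protein with a SAP domain that forms a pair with Dppa2 and, in embryonic stem cells, keeps a set of developmental promoters free of methylation. Its representing probe (ILMN_2593476) had deposited signals of 66.3 in Recovery, 153.4 in 5aza-dC and 63.1 in Mock, with detection p-values of 0.0491 in Recovery, 0 in 5aza-dC and 0.329 in Mock. The normalized log2 levels were 4.69 and 4.57 in Recovery, 6.86 and 6.71 in 5aza-dC, and 4.35 and 4.29 in Mock. Both 5aza-dC arrays thus lay far above the other 4, and the probe was detected in that group alone. Set against Mock, 5aza-dC cells had at least 3.96-fold more Dppa4 signal (a bound, because Mock was at background; fitted log2 difference 2.46 ± 0.09 SE, limma adjusted p = 4.49e-06), and its difference ranked 90 among all tested genes that were higher. In Recovery it was at least 3.69-fold lower than in 5aza-dC (-2.16 ± 0.09, adjusted p = 1.09e-05). The log2 levels in Recovery were 0.31 ± 0.09 above Mock (adjusted p = 0.0311), but both groups were below the detection threshold, so no call and no fold is given. The other 3 Dppa4 probes were not detected in any group, with signals of 54.6 to 67.9, and the mean of all 4 probes differed by 0.71 (log2) between 5aza-dC and Mock.

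Dppa5a encodes a KH-domain RNA-binding protein of early embryos and embryonic stem cells. RefSeq also lists pseudogenes Dppa5b and Dppa5c, whose transcripts the probes may not tell apart. The representing probe (ILMN_3090545) was detected in every group, with deposited signals of 118.6 in Recovery, 171.6 in 5aza-dC and 100.7 in Mock. Its log2 levels were 6.40 and 6.47 in Recovery, 7.03 and 6.99 in 5aza-dC, and 5.74 and 5.59 in Mock. The groups did not overlap, with 5aza-dC highest, Recovery between and Mock lowest. Relative to Mock the gene rose by 1.34 ± 0.08 (log2, 2.53-fold, adjusted p = 3.84e-05) in 5aza-dC and by 0.77 ± 0.08 (1.70-fold, adjusted p = 0.00115) in Recovery. Recovery was lower than 5aza-dC by a log2 difference of -0.57 ± 0.08 (adjusted p = 0.00229). A second Dppa5a probe (ILMN_3018711) was detected in 5aza-dC alone, with log2 levels of 4.62 and 4.21 in Recovery, 5.02 and 4.85 in 5aza-dC, and 4.28 and 4.40 in Mock. Relative to Mock it rose at least 1.10-fold in 5aza-dC (adjusted p = 0.0138 in a fit over all detected probes) and at least 1.02-fold lower in Recovery than in 5aza-dC (adjusted p = 0.0306), while Recovery and Mock were both at background.

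Dppa2, the partner of Dppa4, had 2 probes with deposited signals of 52.8 to 60.3 and detection p-values of 0.382 to 0.975. Dppa3 (Stella), which protects methylation of the maternal genome in the zygote, had 1 probe with signals of 59.4 in Recovery, 58.8 in 5aza-dC and 63.9 in Mock. None of these 3 probes reached detection in a group, so the rise of Dppa4 in 5aza-dC was measured without a detectable level of its partner. At these signals a low level of either transcript was not detectable on the array.

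Tbx3, a T-box repressor that also acts in limb and mammary development, was lower in 5aza-dC and in Recovery than in Mock. The representing probe (ILMN_1247220) had deposited signals of 100.3 in Recovery, 108.8 in 5aza-dC and 216.5 in Mock. Its log2 levels were 6.049 and 6.022 in Recovery, 6.013 and 6.002 in 5aza-dC, and 7.237 and 7.229 in Mock. All 4 arrays of exposed cells lay more than 1 log2 unit below both Mock arrays. Relative to Mock the differences were -1.23 ± 0.07 in 5aza-dC (2.34-fold lower, adjusted p = 2.51e-05) and -1.20 ± 0.07 in Recovery (2.29-fold lower, adjusted p = 1.10e-04). Between Recovery and 5aza-dC the probe differed by 0.03 ± 0.07 (adjusted p = 0.770).

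The 4 Tbx3 probes shared the direction relative to Mock but not its size after recovery. All of them were lower in 5aza-dC than in Mock and in Recovery than in Mock, each past the threshold in the fit over all detected probes. ILMN_3139514 differed from Mock by -1.51 ± 0.16 in 5aza-dC and by -1.30 ± 0.16 in Recovery. ILMN_3061990 differed by -0.77 ± 0.13 in 5aza-dC and by -0.43 ± 0.13 in Recovery (adjusted p = 0.0409). The probe ILMN_1228778, annotated to the cDNA record AK031708 and not to the RefSeq transcript of the others, had log2 levels of 5.24 and 5.19 in Recovery, 4.53 and 4.46 in 5aza-dC, and 5.66 and 5.53 in Mock. That probe was at least 1.86-fold lower in 5aza-dC than in Mock, -0.38 ± 0.08 lower in Recovery than in Mock (adjusted p = 0.0153), and at least 1.43-fold higher in Recovery than in 5aza-dC (adjusted p = 0.00124). Of the 4 it was the only one whose difference between Recovery and 5aza-dC passed, and the mean over all 4 probes gave 0.33 ± 0.07 (adjusted p = 0.00961). Differences between probes were not tested.

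Klf4, a zinc-finger factor that in differentiated cells restrains proliferation, was higher in exposed cells by less than 2-fold on its representing probe. Deposited signals of the representing probe (ILMN_1241903) were 110.2 in Recovery, 130.2 in 5aza-dC and 101.3 in Mock. The log2 levels were 6.20 and 6.31 in Recovery, 6.38 and 6.46 in 5aza-dC, and 5.86 and 5.54 in Mock, so the 2 Mock arrays were the lowest of the 6 and lay farther apart than either other pair. Klf4 rose by 0.72 ± 0.12 (log2, adjusted p = 0.00228) in 5aza-dC and by 0.55 ± 0.12 (adjusted p = 0.0112) in Recovery, each relative to Mock, and Recovery differed from 5aza-dC by -0.16 ± 0.12 (adjusted p = 0.305). The Recovery call was lost without the second Recovery array (0.50 ± 0.15, adjusted p = 0.0612) and with the mean of the 3 Klf4 probes (0.20 ± 0.08, adjusted p = 0.0810). A second probe (ILMN_1221264) gave 0.35 ± 0.17 in 5aza-dC and 0.34 ± 0.17 in Recovery relative to Mock, which did not pass (adjusted p = 0.129 and 0.169). The remaining probe (ILMN_2999439) was not detected in any group and was not tested. Its mean log2 levels lay in the other direction, at 4.40 in Recovery, 4.30 in 5aza-dC and 4.68 in Mock.

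Sox2, an HMG-box factor that binds DNA together with Oct4 and also marks neural progenitors, had detectable signal in all 3 groups through 1 of its 2 probes. The detected probe (ILMN_2656102) had deposited signals of 150.4 in Recovery, 173.6 in 5aza-dC and 287.8 in Mock. Its log2 levels were 7.03 and 6.90 in Recovery, 7.14 and 6.93 in 5aza-dC, and 7.88 and 7.61 in Mock. The exposed arrays all lay below both Mock arrays, and Recovery and 5aza-dC overlapped. Sox2 fell in 5aza-dC (-0.71 ± 0.12, adjusted p = 0.00289) and in Recovery (-0.78 ± 0.12, adjusted p = 0.00397) relative to Mock, and Recovery differed from 5aza-dC by -0.07 ± 0.12 (adjusted p = 0.683). The other probe for the same transcript (ILMN_1248711) stayed at background with signals of 57.9 in Recovery, 59.7 in 5aza-dC and 60.7 in Mock, so the probes disagree on whether Sox2 is present. In RefSeq the Sox2 gene lies within the span of the long noncoding RNA gene Sox2ot, and where the probes sit was not analysed here.

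**Figure D2:**
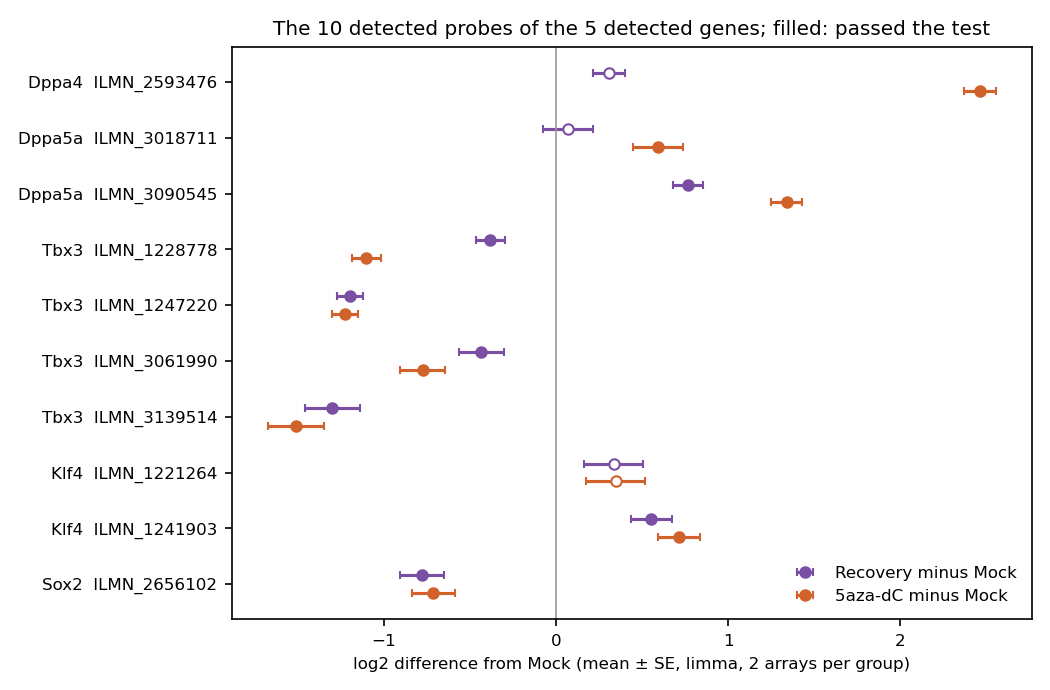
Log2 difference (x axis, with SE bars) for each of the 10 detected probes of Dppa4, Dppa5a, Tbx3, Klf4 and Sox2 in Recovery minus Mock and in 5aza-dC minus Mock; filled points passed the test. All 4 Tbx3 probes lie below 0 in both, and the Dppa4 probe lies at 0.31 in Recovery and at 2.46 in 5aza-dC.

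Counted by probe, 4 of the 10 detected were higher and 5 lower in 5aza-dC than in Mock. In Recovery 2 were higher and 5 lower than in Mock. Relative to 5aza-dC, 1 was higher in Recovery, the AK031708 probe of Tbx3, and 3 were lower, those of Dppa4 and Dppa5a. In both comparisons with Mock the 5 lower probes were the 4 of Tbx3 and that of Sox2. The Dppa4 probe and the second Dppa5a probe counted as detected through 5aza-dC alone, where they are high. Shares over all detected probes were not counted, so nothing is read from these counts. By gene the shares were 30.0% higher and 27.0% lower in 5aza-dC and 21.6% and 18.4% in Recovery, relative to Mock.

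Pou5f1 and Nanog, which together with Sox2 form the centre of the embryonic stem cell network, were not detected in any group. Nanog had 2 probes with deposited signals of 54.9 to 65.1 and detection p-values of 0.248 to 0.944. Pou5f1 had 2 probes with signals of 59.9 to 72.1, and its brighter probe (ILMN_1217100) came closest to detection, with detection p-values of 0.0101 in Recovery, 0.0390 in 5aza-dC and 0.0342 in Mock. The log2 levels of that probe were 4.89 and 4.92 in Recovery, 4.59 and 4.52 in 5aza-dC, and 4.57 and 4.73 in Mock. Both Recovery arrays were the highest of the 6. With a detection threshold of 0.05 in place of 0.01, Pou5f1 entered the test and was higher in Recovery than in 5aza-dC (0.35 ± 0.09, adjusted p = 0.0189), while its differences from Mock did not pass in Recovery (0.25 ± 0.09, adjusted p = 0.0586) or in 5aza-dC (-0.10 ± 0.09, adjusted p = 0.373). Neither gene had a detectable rise in 5aza-dC relative to Mock under any detection setting tried.

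**Figure D3:**
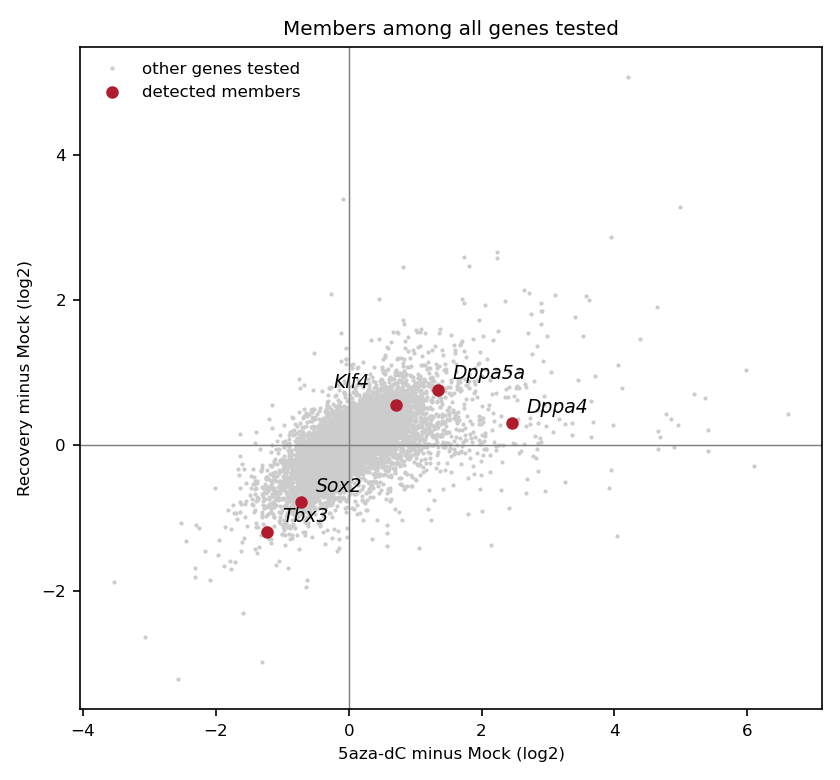
Log2 difference of 5aza-dC minus Mock (x axis) against Recovery minus Mock (y axis) for all 8984 tested genes, with Dppa4, Dppa5a, Klf4, Sox2 and Tbx3 marked; the axes share the Mock arrays, so the slope of the cloud is not read. Dppa4 lies far right at 2.46 with 0.31 in Recovery, Tbx3 lies near the diagonal at -1.23 and -1.20.

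The 5 detected genes had different numbers of other genes near them in log2 differences. Likeness was the distance between genes in the plane of log2 differences of 5aza-dC minus Mock and Recovery minus Mock, over 8984 genes, and is a description over 3 groups. Dppa4 had 4 genes within 0.25, of which Stat2 (2.55 in 5aza-dC and 0.36 in Recovery), Ccl7 and Rab3d were nearest. The place of Dppa4 in the plane is uncertain, because its levels in Mock and Recovery were at background. Stat2 is a signal transducer of type I interferon and Ccl7 a chemokine. Tbx3 had 23 genes within that distance, with E2f5, Tcof1 and Kcnh6 nearest, and Dppa5a had 61, led by Gigyf1, Ganc and H2bc9. Sox2 had 223 such genes (Sec61g, Hspa4 and Rhob nearest) and Klf4 391 (Lmcd1, Gatad1 and Cd99l2 nearest), so these last patterns were common on the array. Fewer genes have large differences, so a count within a fixed distance also follows the size of a gene's own differences. Nothing further is read from the contrast of these counts.

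Marker lists of the cells' own type and of other cell types moved as well. Of 11 tested fibroblast markers, 5 were higher and 1 lower in Recovery than in Mock, against 21.6% and 18.4% of all genes. In 5aza-dC 1 was higher and 6 lower than in Mock, against 30.0% and 27.0%. The median log2 differences were 0.16 in Recovery, against 0.03 over all genes, and -0.32 in 5aza-dC, against 0.01. The summed level of the fibroblast markers per array (linear, offset removed) was 25630 to 25638 in Recovery, 17357 to 17619 in 5aza-dC and 20317 to 21486 in Mock. Of 12 germ cell markers, 3 were detected in Recovery, 5 in 5aza-dC and 1 in Mock, and their summed level was 373 to 424 in Recovery, 927 to 948 in 5aza-dC and 116 to 147 in Mock. Tex19.1 carried much of that sum, with mean log2 levels of 7.77 in Recovery, 9.48 in 5aza-dC and 4.49 in Mock. Kit, Mael, Nanos2, Nanos3, Prdm1, Sycp1 and Sycp3 were at background in each group. Of 7 epithelial markers, 3 were detected in Recovery, 5 in 5aza-dC and 2 in Mock, with Cdh1 and Epcam at background in each. Their summed levels were 277 to 284 in Recovery, 2345 to 2361 in 5aza-dC and 103 in Mock. Krt14 and Krt8 were the brightest of them in 5aza-dC, with mean log2 levels of 10.35 and 9.64. Of 7 trophoblast markers, 2 were detected in Recovery, 3 in 5aza-dC and 2 in Mock (summed levels 119 to 132 in Recovery, 933 to 938 in 5aza-dC and 78.6 to 85.5 in Mock), with Cdx2, Elf5, Eomes and Hand1 at background. The keratin genes Krt8 and Krt18 stand in both the epithelial and the trophoblast list. Without them the trophoblast sums were 28.5 to 34.8 in Recovery, 88.1 to 104.7 in 5aza-dC and 40.4 to 50.6 in Mock, and the epithelial sums were 187 in Recovery, 1495 to 1532 in 5aza-dC and 64.5 to 68.5 in Mock. Gata6 was the sole primitive endoderm marker of 5 above background, in each group. The part of these markers in the changes of the 5 detected genes was not tested.

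Beyond these 9 genes, the wider pluripotency network was tested in part: of 48 listed genes 45 were on the array and 17 were tested. In 5aza-dC 2 were higher and 7 lower than in Mock, where 30.0% of all tested genes were higher and 27.0% lower, and the median log2 difference was -0.10 against 0.01 over all genes. With arrays scaled to their median, 0 of the 17 were higher and 2 lower. In Recovery 0 were higher and 3 lower than in Mock, against 21.6% of all genes higher and 18.4% lower (median -0.11 against 0.03), so the share that was lower was about that of all genes. Relative to 5aza-dC, 3 were higher and 1 lower in Recovery, against 21.5% and 20.9% of all genes (median 0.10 against 0.02). Myc, a growth-promoting factor expressed in most dividing cells, fell by 1.22 ± 0.09 (log2, adjusted p = 8.06e-05) in 5aza-dC and by 0.95 ± 0.09 (adjusted p = 8.23e-04) in Recovery. Fgf5, a growth factor gene of the post-implantation epiblast and of hair follicles, fell by 0.96 ± 0.09 (adjusted p = 2.29e-04) in 5aza-dC and by 0.39 ± 0.09 (adjusted p = 0.0169) in Recovery. Klf2, another Krüppel-like factor of embryonic stem cells, fell by 0.72 ± 0.09 in 5aza-dC (adjusted p = 7.12e-04) and differed from Mock by -0.02 ± 0.09 in Recovery. Zfp281, a zinc-finger repressor, fell by 0.56 ± 0.10 (log2, adjusted p = 0.00283) in 5aza-dC and by 0.54 ± 0.10 (adjusted p = 0.00612) in Recovery, and Hmga2 was at least 1.18-fold lower in 5aza-dC. Myc, Fgf5, Klf2 and Hmga2 are not restricted to embryonic stem cells. Among network genes linked to embryonic stem cells, Zfp42, Esrrb, Tfcp2l1, Lin28a, Utf1, Tdgf1, Fgf4, Sall4 and Prdm14 were not detected in any group. Fbxo15, in the same list, was detected in every group, at mean log2 levels of 5.07 in Recovery, 4.94 in 5aza-dC and 4.86 in Mock. It did not pass in any comparison.

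**Figure D4:**
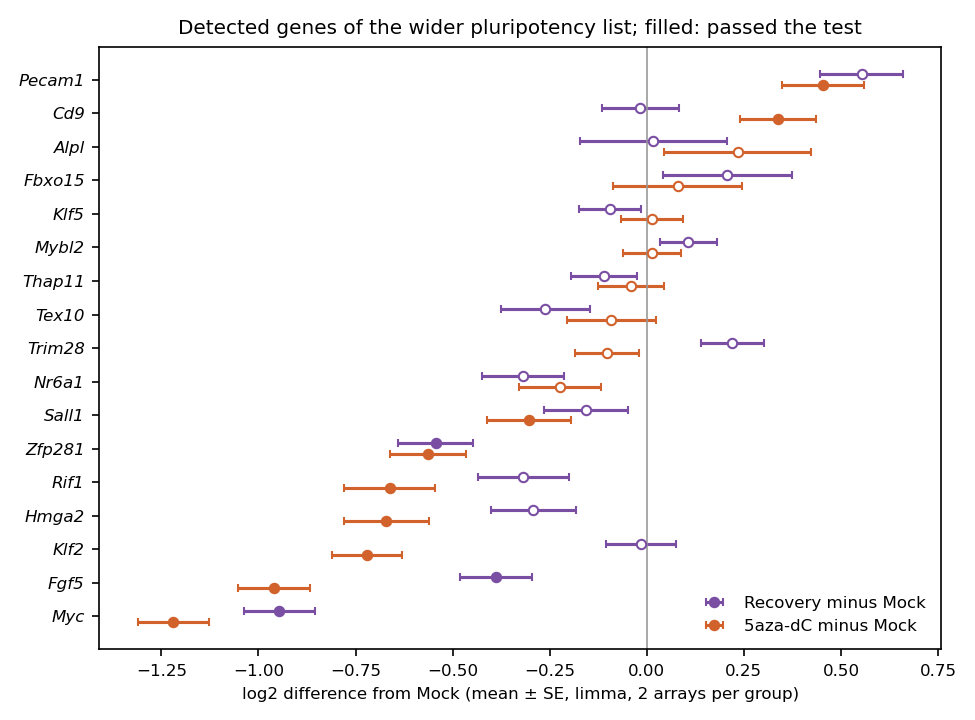
Log2 difference relative to Mock (x axis, with SE bars) for the 17 tested genes of the wider pluripotency network, in Recovery and in 5aza-dC. Myc shows the largest decrease of them in both, -0.95 in Recovery and -1.22 in 5aza-dC, and 0 genes passed as higher in Recovery.

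LIF signalling genes were tested because LIF holds up Klf4 and Tbx3 in embryonic stem cells. Of 9 measured, 5 were tested, and Il6, Il6st, Jak1 and Lifr were not detected. In both 5aza-dC and Recovery 3 of the 5 rose and 1 fell relative to Mock, with median log2 differences of 0.62 in 5aza-dC, against 0.01 over all genes, and 0.63 in Recovery, against 0.03. Over all genes 30.0% were higher and 27.0% lower in 5aza-dC, and 21.6% higher and 18.4% lower in Recovery. The kinase gene Jak2 rose by 1.12 ± 0.10 (log2, adjusted p = 1.98e-04) in 5aza-dC and by 0.63 ± 0.10 (adjusted p = 0.00445) in Recovery. The feedback inhibitor gene Socs3 rose by 0.63 ± 0.08 in 5aza-dC and by 0.64 ± 0.08 in Recovery, and the kinase gene Tyk2 by 0.62 ± 0.09 in 5aza-dC and 0.63 ± 0.09 in Recovery. Lif itself fell by 0.44 ± 0.13 (adjusted p = 0.0255) in 5aza-dC and by 0.50 ± 0.13 (adjusted p = 0.0234) in Recovery. Stat3 did not pass in 5aza-dC (0.25 ± 0.16, adjusted p = 0.205) or in Recovery (0.18 ± 0.16, adjusted p = 0.387). Whether LIF signalling itself changed was not tested.

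Relatives of the transcription factors moved in both directions. The shares of all genes to set their counts against were 30.0% higher and 27.0% lower in 5aza-dC relative to Mock, 21.6% and 18.4% in Recovery relative to Mock, and 21.5% and 20.9% in Recovery relative to 5aza-dC. Of 17 KLF genes 10 were tested, Klf4 included: 1 rose and 3 fell in 5aza-dC relative to Mock, 3 rose and 1 fell in Recovery relative to Mock, and 6 rose and 0 fell in Recovery relative to 5aza-dC. Klf16 was the most changed in 5aza-dC (-0.96 ± 0.10, adjusted p = 3.86e-04), and Klf3, a repressor of the same family, rose in Recovery (0.59 ± 0.10, adjusted p = 0.00568). Of 15 T-box genes besides Tbx3, 2 were tested and 0 passed in any comparison. Of 18 SOX genes 6 were tested, Sox2 included, with 1 higher and 2 lower in 5aza-dC than in Mock and 2 higher and 2 lower in Recovery than in Mock. Sox5, a regulator of cartilage formation, rose by 0.64 ± 0.07 (adjusted p = 4.44e-04) in 5aza-dC and by 1.42 ± 0.07 (adjusted p = 7.02e-05) in Recovery, the opposite direction to Sox2, and Sox4 fell in both. Of 9 POU genes besides Pou5f1, 3 were tested. Pou3f1 (Oct6), a factor of the epiblast and of Schwann cells, rose at least 3.91-fold in 5aza-dC relative to Mock (adjusted p = 2.83e-05) and was not detected in Recovery or Mock. Pou6f1 was higher in 5aza-dC (0.80 ± 0.13) and in Recovery (0.87 ± 0.13) than in Mock, and Pou5f2 was at least 1.60-fold lower in Recovery than in Mock. In 5aza-dC Pou5f2 was also called lower, but 1 of its 2 arrays alone was above background there, and no size is given.

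Normalization bore on which of the smaller differences passed the test. When arrays were scaled to their median in place of quantile normalization, all tested genes shifted by a median log2 of -0.12 in 5aza-dC minus Mock, -0.25 in Recovery minus Mock and -0.15 in Recovery minus 5aza-dC, and far fewer genes were called. The calls over all genes were then 569 higher and 396 lower in 5aza-dC minus Mock (2699 and 2422 with quantile normalization), 67 higher and 285 lower in Recovery minus Mock (1941 and 1649), and 28 higher and 483 lower in Recovery minus 5aza-dC (1932 and 1877). The SE of each of the 5 detected genes was 0.34 under that scaling, against 0.07 (Tbx3) to 0.12 (Sox2) with quantile normalization. Lost calls thus came with a larger SE and not only with smaller differences. Under that scaling the calls for Dppa4, for Dppa5a in 5aza-dC relative to Mock, for Tbx3 relative to Mock and for Sox2 in Recovery relative to Mock stayed past the threshold. Klf4 (0.67 ± 0.34 in 5aza-dC, adjusted p = 0.222, and 0.31 ± 0.34 in Recovery, adjusted p = 0.725), Sox2 in 5aza-dC (-0.83 ± 0.34, adjusted p = 0.106) and Dppa5a in Recovery (0.51 ± 0.34 relative to Mock, adjusted p = 0.485, and -0.76 ± 0.34 relative to 5aza-dC, adjusted p = 0.263) did not pass.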

How the data were processed

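Total RNA was extracted with TRIZOL and labelled with a TotalPrep kit, per the labels' protocols. One deposited table holds signal intensity per probe, not normalized, with a detection p-value, per the file headers. In the other deposited table the intensity has been background-subtracted and scaled by the authors to a common mean of 224.5, read from its values. The software used for either is not given in the sources. There were 0 columns of other samples.

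The detection p-values, all on steps of a 0.5 control, correspond to 2 arrays with 936 negative controls each. The 6 arrays were solved from both tables (detection p-values of 0.05 to 0.97). The misfit SD was 2.15e-03 in Recovery, 7.55e-05 in 5aza-dC and 1.34e-04 in Mock, against 0.0293 in Recovery, 0.0286 in 5aza-dC and 0.0379 in Mock with 1 array. The arrays of a group correlated with r = 0.995 in Recovery, 0.996 in 5aza-dC and 0.994 in Mock (log2, across all probes, those at background included). These arrays are an inference from the files, and their number limits the precision of every test.

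Arrays were processed in R 4.3.3 with limma 3.58.1 (neqc: normexp from detection p-values, offset 16, quantile normalization, log2) and fitted over all detected genes with lmFit and eBayes (3 residual and 3.7 prior degrees of freedom, all groups in 1 fit), with Benjamini-Hochberg adjustment over 8984 genes. A gene was represented by its probe with the highest mean and tested if detected at p below 0.01 in 1 group or more; it was called at an adjusted p below 0.05 with detection in the brighter group. A bound uses the lowest level among detected probes of each array. On simulated data for 5aza-dC minus Mock (8984 genes) the test recovered 52% of genes changed by 0.5 (log2), 86% by 1 and 98% by 2. Annotation gave 34885 probes 1 symbol, 18 several and 10378 none; 34807 matched RefSeq by Entrez number and 0 were renamed. Named genes were all 9 members and, in each other list, those of largest absolute difference among the called. The members and lists were chosen with earlier results of these data known.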

Additional observations from a re-analysis of the deposited data

How the results depend on the processing

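Members called in 5aza-dC minus Mock numbered 5, in Recovery minus Mock 4 and in Recovery minus 5aza-dC 2. Scaling to the median of all probes gave 3, 2 and 1, and a detection threshold of 0.05 gave 5, 5 and 3. At that threshold Dppa4, with a detection p-value of 0.0491 in Recovery, was called higher in Recovery than in Mock (0.31 ± 0.09, limma adjusted p = 0.0378). Members called at 2-fold or more numbered 3 in 5aza-dC minus Mock, and 1 with an offset of 50, without background correction or with the mean of a gene's probes. In Recovery minus Mock they numbered 1, against 0 under those 3 settings and 2 with median scaling, and in Recovery minus 5aza-dC 1, against 0 with the mean of probes. The network counts of 9, 3 and 4 (5aza-dC minus Mock, Recovery minus Mock, Recovery minus 5aza-dC) became 2, 1 and 0 with median scaling, and the second became 5 with an offset of 50, without background correction or with the mean of probes. Calls in the KLF, T-box, LIF, SOX and POU lists numbered 39 over the 3 comparisons, and 6 with median scaling. These lists held 10, 2, 5, 6 and 3 tested genes in that order, each counted once per comparison. Shares over all genes were 30.0% up and 27.0% down in 5aza-dC minus Mock. They were 21.6% and 18.4% in Recovery minus Mock, and 21.5% and 20.9% in Recovery minus 5aza-dC. Nothing particular to these lists is read from the total. Leaving out each array in turn gave 5 member calls in 5aza-dC minus Mock, 3 to 4 in Recovery minus Mock and 2 in Recovery minus 5aza-dC, and network counts of 6 to 9, 2 to 5 and 2 to 5 in the same order. The network count of Recovery minus Mock was 5 without Mock replicate 1, and that of Recovery minus 5aza-dC was 2 without either Recovery or either 5aza-dC array. The cause of these shifts was not tested. No called difference of a member changed sign under any alternative. No paired analysis was possible because the deposited columns carry no replicate numbers. The deposited columns taken alone give 1 value per group and no test. Signal over background is a further limit: at a detection p below 0.01, 12 of 22 probes were not above background, and folds of dim probes depend on the offset (Dppa4 in 5aza-dC minus Mock is 2.46 with an offset of 16 and 1.42 with 50, log2).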

Other observations

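The nearest 3 protein-coding genes on each side of every member (RefSeq order) came to 42 neighbours, of which 36 were on the array and 19 were tested. In 5aza-dC 8 were higher and 5 lower than in Mock (30.0% and 27.0% over all genes), in Recovery 3 were higher and 6 lower than in Mock (21.6% and 18.4%), and 6 were higher and 7 lower in Recovery than in 5aza-dC (21.5% and 20.9%). Several of these counts are near the shares over all genes, and nothing particular to the neighbours is read from them. The genes named here were chosen after their values were seen.

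Apobec1, the cytidine deaminase that edits apolipoprotein B mRNA, lies near Dppa3 and Nanog on chromosome 6 and was 1.99 ± 0.13 (log2, limma adjusted p = 4.41e-05) higher in 5aza-dC than in Mock and -2.20 ± 0.13 lower in Recovery than in 5aza-dC (adjusted p = 5.00e-05), where 1 of 2 arrays was above background. Gdf3, Dppa3 and Nanog, which follow Apobec1 in that order, stayed at background. Slc2a3, a glucose transporter gene on the other side of Nanog, was detected in 5aza-dC alone, at least 1.09-fold above Mock (adjusted p = 0.00142). Beside Dppa4 and Dppa2 on chromosome 16, Nectin3 was lower in 5aza-dC (-1.01 ± 0.07, adjusted p = 7.13e-05) and in Recovery (-0.36 ± 0.07, adjusted p = 0.0102) than in Mock, and Morc1 and Trat1 were at background in every group.

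Ooep, an oocyte gene next to Dppa5a on chromosome 9, was detected in 5aza-dC alone, where it was at least 1.52-fold higher than in Mock (adjusted p = 0.00206). Near Tbx3 on chromosome 5, Spring1 and Rbm19 were lower in 5aza-dC than in Mock by -1.17 ± 0.09 and -1.15 ± 0.09 (adjusted p = 8.70e-05 and 1.01e-04), and in Recovery by -0.71 ± 0.09 and -0.52 ± 0.09. The adjacent gene Med13l was at least 1.22-fold lower in 5aza-dC than in Mock (adjusted p = 0.0461, with 1 of 2 Mock arrays above background) and differed from Mock by 0.09 ± 0.15 in Recovery (adjusted p = 0.672). Rnft2 differed from Mock by 0.11 ± 0.07 in 5aza-dC (adjusted p = 0.257) and was higher in Recovery (0.50 ± 0.07, adjusted p = 0.00316), while Tbx5, the T-box gene beside Tbx3, was at background throughout.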
